A study of Saccharomyces cerevisiae with 7 samples.

Results

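The genes described here are 10 budding yeast genes for the uptake of iron and of iron bound to siderophores, namely FET3, FTR1, ARN1, ARN2, SIT1, ENB1, FIT1, FIT2, FIT3 and HMX1. They were taken by gene symbol from the 5449 genes measured on the array, each had 1 probe set, and all 10 were found. RNA was measured on 7 one-colour Affymetrix arrays of Saccharomyces cerevisiae strain BY4742, a haploid of the alpha mating type. The arrays hold 3 wild-type samples, 2 Ssn6 knockout samples (the ssn6 deletion) and 2 TUP1 knockout samples (the tup1 deletion). GEO's design text describes each cell type as run in duplicate, whereas 3 samples carry the wild-type label; none was left out here. All cultures were in YEP, a rich medium, with 2% glucose and reached an OD600 of 0.8. No group was labelled as starved of iron or given a siderophore. Whether replicates were separate cultures is not given in the labels, so the tests below rest on a spread between arrays that may be only technical.

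Iron enters this yeast by 2 routes. In the reductive route, surface reductases of the FRE family reduce ferric iron, the multicopper oxidase Fet3 oxidises it again, and the permease Ftr1, which forms a complex with Fet3, carries it in. In the other route, transporters of the ARN family take up siderophores, iron chelators that other microbes secrete and that S. cerevisiae does not make itself, and the FIT mannoproteins hold siderophore iron in the cell wall. The haem oxygenase Hmx1 releases iron from haem. All these genes are activated by Aft1 and its relative Aft2 when iron is scarce. Ssn6 (gene CYC8) and Tup1 form a corepressor that DNA-binding proteins bring to promoters, and the series title asks how it regulates transcription.

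Values are deposited log2 levels per probe set, and a change is a difference of genotype means on that log2 scale with its moderated standard error (SE). "Rose", "fell" and "called" mean an adjusted p under 0.05 in limma's test across all 5449 genes. Every member was above background on every array. The lowest value of any member, 8.50 for HMX1, compares with background floors of 5.50 to 5.67, where a floor is the 95th percentile of 1746 fission yeast probe sets on the same array. CYC8 (YBR112C) read 5.62 and 6.07 in the ssn6 deletion and 11.22 to 11.56 elsewhere, and TUP1 (YCR084C) read 4.69 and 5.07 in the tup1 deletion and 11.56 to 12.50 elsewhere. The alpha markers STE3 (12.17 to 12.41) and MF(ALPHA)1 (12.52 to 13.18) were high in wild type, as the strain's label has it. The deletions did not keep this pattern. STE3 read 10.33 and 10.31 in ssn6 and 9.39 and 9.65 in tup1. MFA2, a marker of the opposite mating type, read 6.94 to 7.49 in wild type, 12.71 and 12.52 in ssn6 and 11.15 and 11.65 in tup1. For the actin control gene ACT1, the 3′ probe set exceeded the 5′ one by 2.06 log2 units in wild-type replicate 2, and by 0.30 to 0.61 on the other arrays. The part of that array in the results was not tested beyond leaving it out.

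The 10 genes did not move together in either deletion. FIT1 was the 1 member that rose in both, 3.30-fold without Ssn6 and 4.07-fold without Tup1. Without Ssn6, the ferrioxamine transporter gene SIT1 also rose, while FIT2 and the haem oxygenase gene HMX1 fell. Without Tup1, the permease gene FTR1 fell, and its level in the tup1 deletion lay 2.08-fold below that in the ssn6 deletion. The other 5 members, FET3, ARN1, ARN2, ENB1 and FIT3, were called in none of the 3 comparisons.

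In counts, 2 of the 10 rose and 2 fell in the ssn6 deletion, where 9.18% of all genes rose and 10.3% fell. In the tup1 deletion 1 rose and 1 fell, against 10.4% and 12.6% of all genes. Between the deletions 1 member was higher in ssn6 and 0 were higher in tup1, against 1.91% and 0.496% of all genes, and 5 of the 10 differences had an unadjusted p under 0.05, as had 1039 of the 5449 genes. No test of these counts against the shares was made, and with 10 genes a difference of 1 or 2 genes cannot be read as particular to them. The median change of the 10 was 0.11 in ssn6, where that of all genes was −0.14, and −0.24 in tup1, where that of all genes was −0.08. Arrays of deletion and wild type did not overlap for 6 of the 10 in ssn6 (59.4% of all genes) and 6 in tup1 (52.0%), and the deletions did not overlap with each other for 7 (63.6%).

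**Figure D1:**
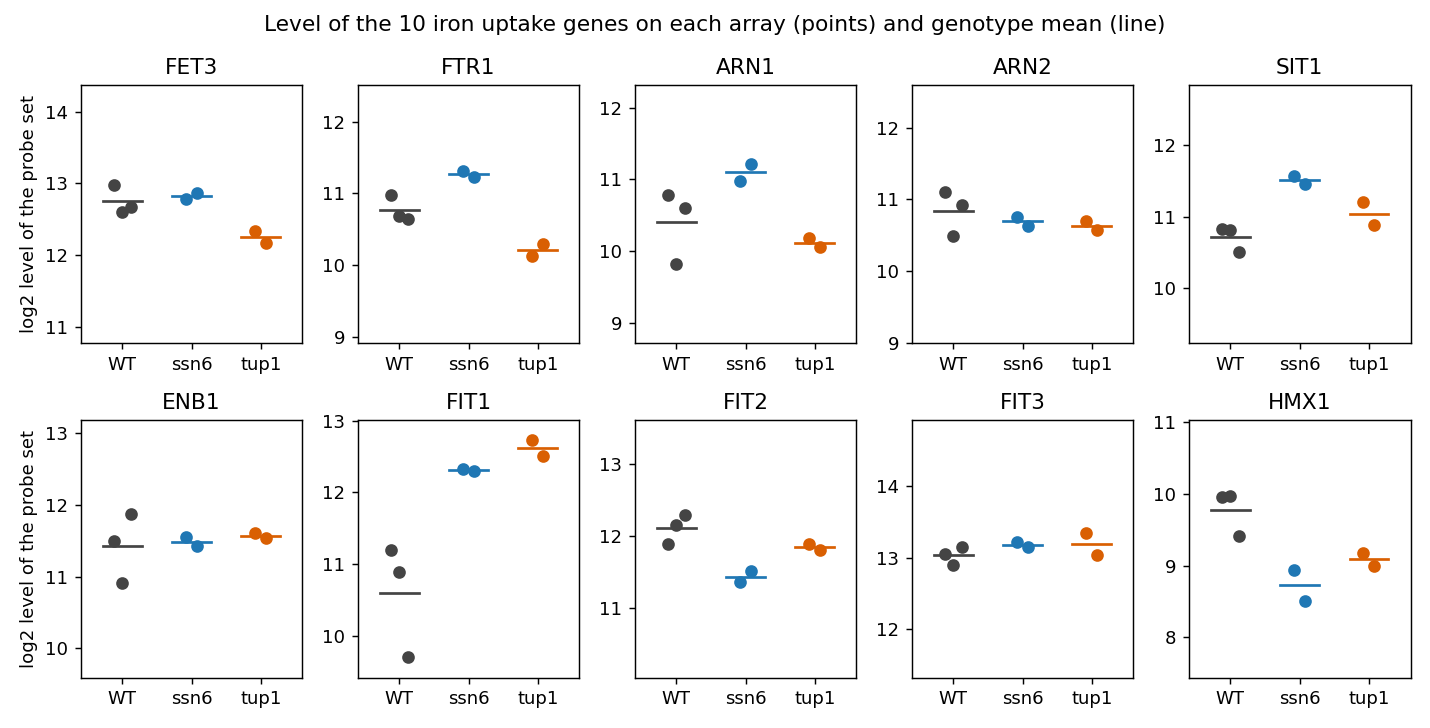
Log2 level of each gene's probe set (vertical axis, every panel spanning the same number of log2 units) in wild type (WT, 3 arrays), the ssn6 deletion (2) and the tup1 deletion (2), 1 point per array with a line at the genotype mean. FIT1 was higher on all 4 deletion arrays (12.30 to 12.73) than on the 3 wild-type arrays (9.70 to 11.20), while ENB1 and FIT3 overlapped throughout.

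Of the reductive pair, FTR1 passed in tup1 and between the deletions, and FET3 passed in no comparison. FTR1 (YER145C, chromosome V), the iron permease, read 10.98, 10.69 and 10.64 in wild type, 11.31 and 11.23 in the ssn6 deletion and 10.12 and 10.30 in the tup1 deletion. No genotype overlapped another, with ssn6 highest and tup1 lowest. Its fall in tup1 was −0.56 ± 0.15 (SE, limma, adjusted p = 0.0395), and its change in ssn6 was 0.50 ± 0.15, which missed the threshold (adjusted p = 0.0616). The difference between the deletions, ssn6 minus tup1, was 1.06 ± 0.17 (adjusted p = 0.0283), higher on both ssn6 arrays than on either tup1 array. Of all 5449 genes, 150 differed more between the deletions in size.

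FET3 (YMR058W, chromosome XIII), the ferroxidase partner of Ftr1, read 12.98, 12.60 and 12.66 in wild type, 12.78 and 12.87 in ssn6 and 12.33 and 12.16 in tup1. The tup1 arrays were the lowest, and wild type and ssn6 overlapped. Its change was −0.50 ± 0.16 in tup1 (limma adjusted p = 0.0604) and 0.07 ± 0.16 in ssn6 (adjusted p = 0.771), with a 95% interval of −0.30 to 0.45 in ssn6. Between the deletions it differed by 0.58 ± 0.17 (adjusted p = 0.144), in the direction of FTR1. Without wild-type replicate 2, FET3 passed in tup1 (−0.58, adjusted p = 0.0428).

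The call for FTR1 in tup1 passed when wild-type replicate 2 or 3 was left out and was lost without any 1 of the other 5 arrays, with adjusted p from 0.0588 to 0.195. FTR1 passed as a rise in ssn6 without wild-type replicate 1 (0.60, adjusted p = 0.0463). The difference between the deletions was lost without either ssn6 array or tup1 replicate 1, with changes of 0.97 to 1.10 in those fits and adjusted p from 0.182 to 0.263. Such fits keep a single array in 1 genotype and assume that it varies like the others. The main tests also pool 1 spread over the genotypes, although replicate arrays differed unequally. Over all genes the median absolute difference was 0.083 between the ssn6 arrays, 0.214 between the tup1 arrays and 0.194 to 0.291 between wild-type arrays.

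Of the 4 siderophore transporter genes, 1 rose in ssn6, where 9.18% of all genes rose. By limma 0 passed in tup1 or between the deletions, where 0 and 2 had an unadjusted p under 0.05. Of all 5449 genes, 1255 passed in tup1 and 131 between the deletions, and 2091 and 1039 had such an unadjusted p. These counts were not tested. SIT1 (YEL065W, chromosome V, also ARN3), the transporter of ferrioxamine B, read 10.82, 10.81 and 10.50 in wild type, 11.57 and 11.45 in ssn6 and 11.20 and 10.88 in tup1. Both deletions lay above wild type without overlap, and ssn6 above tup1. SIT1 rose by 0.80 ± 0.17 in ssn6 (1.74-fold, limma adjusted p = 0.0182), against 0.33 ± 0.17 in tup1 (adjusted p = 0.196). The difference between these changes, 0.47 ± 0.18, did not pass (adjusted p = 0.227).

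ARN1 (YHL040C, chromosome VIII), a transporter of ferrichromes, read 10.79, 9.82 and 10.61 in wild type, 10.98 and 11.22 in ssn6 and 10.18 and 10.05 in tup1. Both ssn6 arrays were above all others, and the tup1 arrays fell between wild-type replicate 2 and the other wild-type arrays. Its changes were 0.70 ± 0.28 in ssn6 (limma adjusted p = 0.122) and −0.29 ± 0.28 in tup1 (adjusted p = 0.489), and the deletions differed by 0.99 ± 0.31 (adjusted p = 0.154). The changes against wild type depended on wild-type replicate 2, the array with the unusual actin control. Without it the change was 0.41 in ssn6 (adjusted p = 0.0963) and −0.58 in tup1 (adjusted p = 0.0356). The difference between the deletions stayed at 0.99 and passed (adjusted p = 0.0249). A wild-type array enters that difference only through the shared estimate of the spread.

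ARN2 (YHL047C, chromosome VIII), the transporter of triacetylfusarinine, read 11.11, 10.49 and 10.93 in wild type, 10.76 and 10.64 in ssn6 and 10.69 and 10.57 in tup1. All 4 deletion arrays lay inside the wild-type range. ENB1 (YOL158C, chromosome XV, also ARN4), the enterobactin transporter, read 11.50, 10.91 and 11.87 in wild type, 11.55 and 11.42 in ssn6 and 11.61 and 11.53 in tup1, again inside the wild-type range. The 95% intervals of the ssn6 change were −0.61 to 0.32 for ARN2 and −0.56 to 0.68 for ENB1. In tup1 they were −0.67 to 0.25 and −0.48 to 0.77, so changes of some size in either direction remain possible for both genes.

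Of the 3 FIT genes, FIT1 rose in both deletions, FIT2 fell in ssn6 and FIT3 passed in neither. FIT1 (YDR534C, chromosome IV) read 11.20, 10.89 and 9.70 in wild type, 12.33 and 12.30 in ssn6 and 12.73 and 12.51 in tup1. The genotypes did not overlap, with tup1 highest. FIT1 rose by 1.72 ± 0.40 in ssn6 (limma adjusted p = 0.0258) and by 2.02 ± 0.40 in tup1 (adjusted p = 0.0134), the largest change of the 10 members in either deletion, and 201 and 130 of the 5449 genes changed more in size. The deletions differed by −0.30 ± 0.44 (adjusted p = 0.727). Both comparisons share the wild-type arrays.

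Wild-type replicate 3 was the low array for FIT1, at 1.19 log2 units below the next, and the gene's spread within genotypes (pooled SD 0.56) exceeded that of 96.5% of all genes. Without that array the changes were 1.27 in ssn6 (adjusted p = 0.00643) and 1.58 in tup1 (adjusted p = 0.00308). The call in ssn6 was lost without either ssn6 array (adjusted p = 0.137 and 0.145), and the call in tup1 without tup1 replicate 1 (adjusted p = 0.108).

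FIT2 (YOR382W) and FIT3 (YOR383C) are neighbours on chromosome XV that face each other. FIT2 read 11.89, 12.16 and 12.30 in wild type, 11.36 and 11.51 in ssn6 and 11.89 and 11.81 in tup1. The ssn6 arrays were the lowest, and the tup1 arrays lay just under the lowest wild-type array. FIT2 fell by 0.68 ± 0.16 on the log2 scale in ssn6 (limma adjusted p = 0.0252), and its change in tup1 was −0.27 ± 0.16 (adjusted p = 0.252). FIT3 read 13.05, 12.90 and 13.15 in wild type, 13.22 and 13.14 in ssn6 and 13.35 and 13.03 in tup1, with all genotypes overlapping. Its changes were 0.15 ± 0.15 in ssn6 (adjusted p = 0.513) and 0.16 ± 0.15 in tup1 (adjusted p = 0.485).

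HMX1 (YLR205C, chromosome XII), the haem oxygenase gene, read 9.97, 9.97 and 9.42 in wild type, 8.95 and 8.50 in ssn6 and 9.18 and 9.00 in tup1. The ssn6 arrays were the lowest, the tup1 arrays were in between, and no genotype overlapped another. HMX1 fell by 1.06 ± 0.22 on the log2 scale in ssn6 (2.08-fold, limma adjusted p = 0.0188), and 458 genes changed more in size. In tup1 its change was −0.70 ± 0.22 (adjusted p = 0.0639), which passed without wild-type replicate 3 (−0.88, adjusted p = 0.0273). The difference between the deletions was −0.36 ± 0.25 (adjusted p = 0.444).

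**Figure D2:**
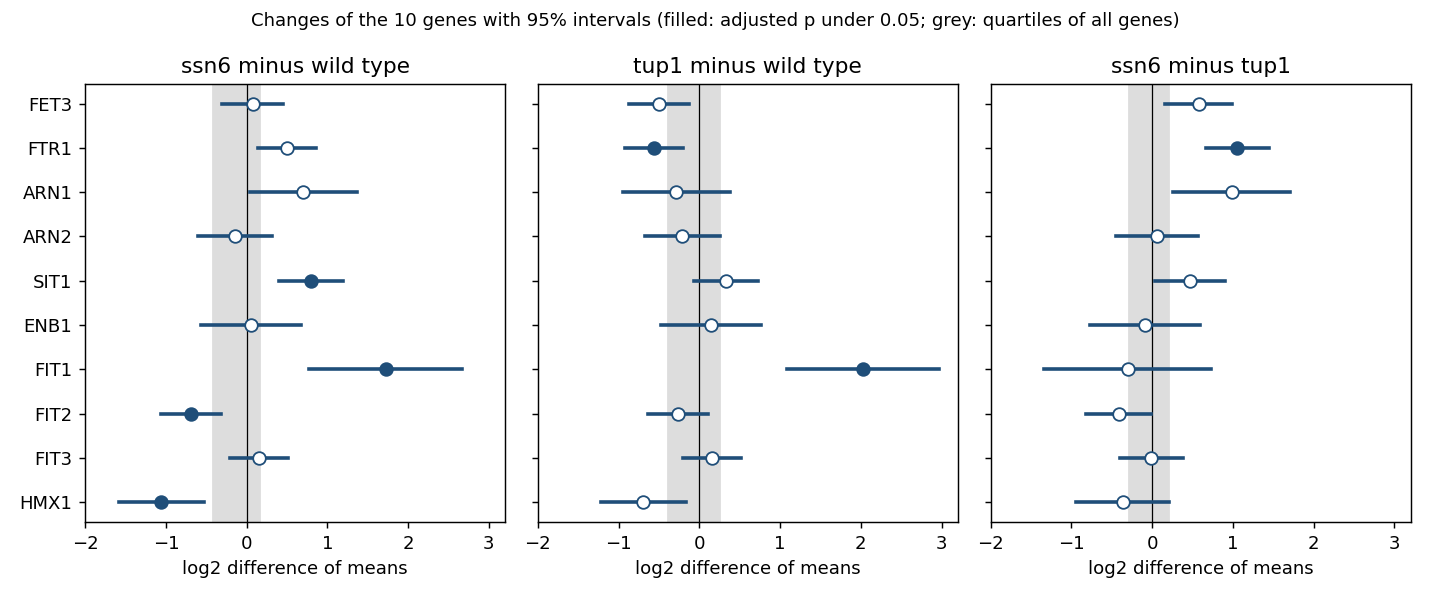
Difference of mean log2 levels (horizontal axis) for each gene in the 3 comparisons, with 95% intervals of limma's moderated estimate, filled points for an adjusted p under 0.05, and a grey band for the range between the quartiles of all 5449 genes. FIT1 lies farthest right against wild type in both deletions, at 1.72 and 2.02, and FTR1 is the 1 filled point between the deletions, at 1.06.

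None of the 4 calls in ssn6 held without either ssn6 array, with adjusted p from 0.0552 to 0.197, while the number of genes called overall went from 1059 to 298 and 279. The FIT2 call was also lost without wild-type replicate 3 (adjusted p = 0.0505) and that of HMX1 without wild-type replicate 1 (0.053). All 7 calls kept their direction whichever array was left out.

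**Figure D3:**
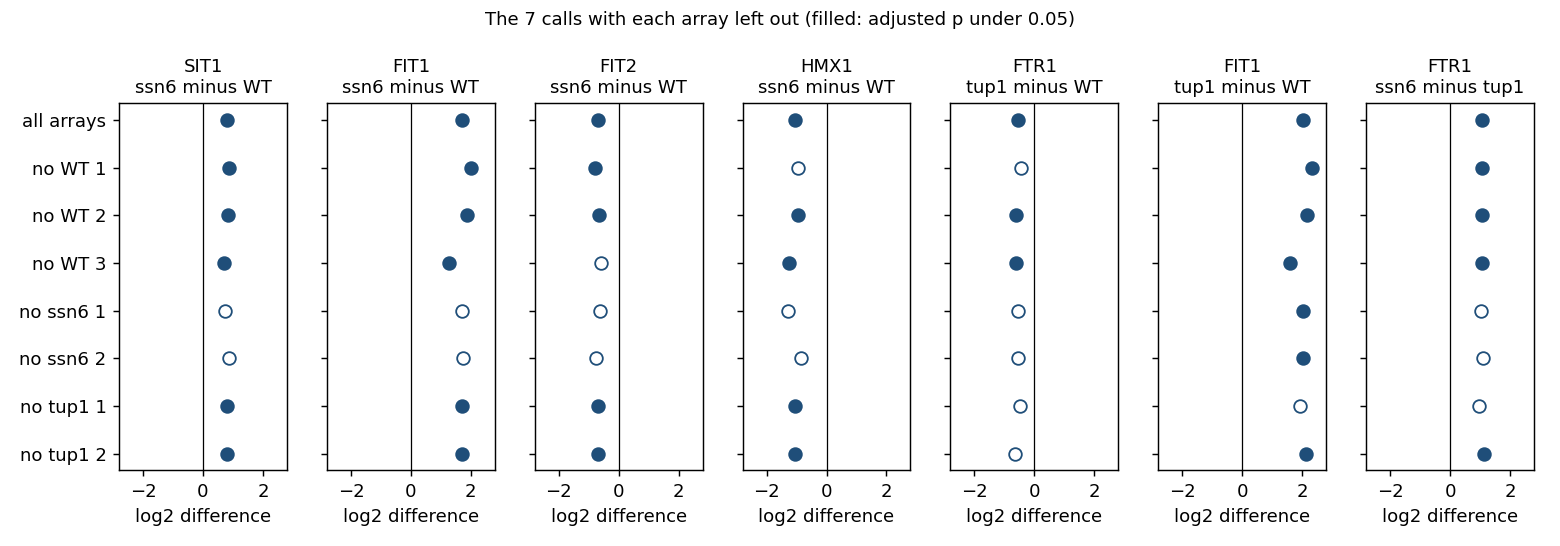
The 7 calls of the 10 genes, each refitted without 1 array (rows, named by genotype and replicate), as differences of mean log2 levels (horizontal axis), with filled points for an adjusted p under 0.05. No point crosses 0, and FIT1 without wild-type replicate 3 moves to 1.27 in ssn6 and 1.58 in tup1.

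Profiles were also set against those of all other genes, as the root mean square difference of mean-centred log2 values over the 7 arrays. For FIT1 the nearest gene was HBT1, a gene for a protein of polarised growth, at 0.15, while the profile of FIT1 itself varied by 1.03 about its mean. The next were the transketolase gene TKL2 (0.16) and POX1, the acyl-CoA oxidase of peroxisomes (0.22), named after their values were seen. All 3 shared the low value in wild-type replicate 3, at 10.24 for HBT1, 11.01 for TKL2 and 8.01 for POX1. On the other wild-type arrays they read 11.78 to 12.09, 12.49 to 12.58 and 9.50 to 9.70. They were picked for nearness to FIT1 over these same arrays, so the shared pattern follows from the choice. Among the members, the profile nearest to FIT1 was that of SIT1, at 0.78, and those of FIT3 and FIT2 were at 0.98 and 1.28.

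**Figure D4:**
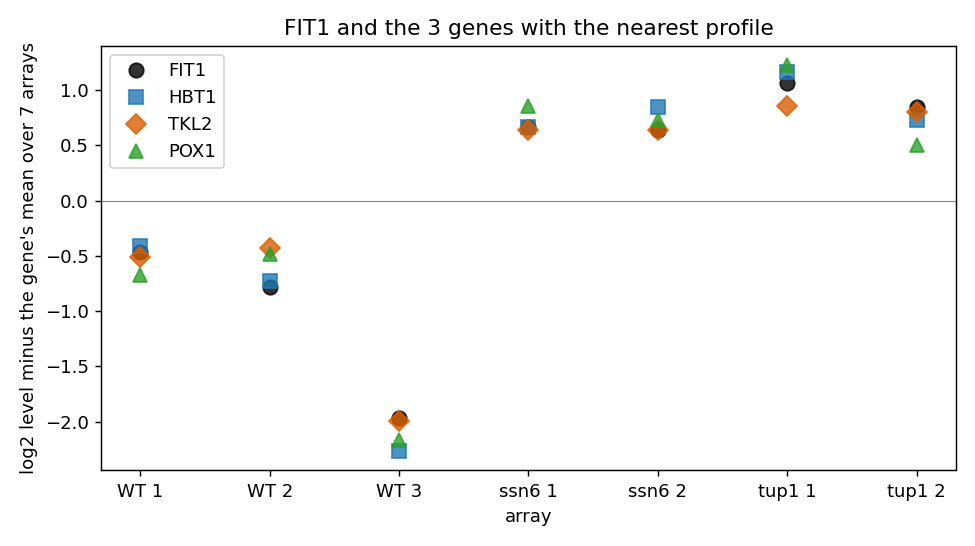
Log2 level minus the gene's mean over 7 arrays (vertical axis) for FIT1, HBT1, TKL2 and POX1 on each array (horizontal axis; WT is wild type). All 4 genes are lowest in wild-type replicate 3, FIT1 at −1.97, and above their mean on the 4 deletion arrays. HBT1, TKL2 and POX1 were picked for nearness to FIT1 over these arrays.

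The nearest genes to the other members were PAM18, CKS1 and NAT5 for FET3 (0.09 to 0.10), LDB17, PEP8 and TAN1 for FIT2 (0.05 to 0.07), and CLB2, YKR041W and GAL80 for ARN1 (0.15 to 0.18). The single nearest gene was RRN11 for FTR1 (0.09), URE2 for ARN2 (0.06), YHL012W for SIT1 (0.10), PDX1 for ENB1 (0.06), ACF2 for FIT3 (0.05) and CUS1 for HMX1 (0.10). None of these belongs to the iron lists below. Among the members, the smallest differences were those of ENB1 and FIT3 (0.21), ARN2 and FIT3 (0.22) and ARN2 and ENB1 (0.22), all of them genes with no call. The profiles of these genes varied little about their own means, by 0.134 for FIT3, 0.198 for ARN2 and 0.270 for ENB1. The small differences therefore do not show that the profiles are alike. FET3 and FTR1 differed by 0.230 and FET3 and ARN2 by 0.227.

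Other genes of iron handling, 55 in 6 lists, also moved in both directions. In ssn6, 7 rose and 4 fell, with a median of −0.05, and in tup1 5 rose and 7 fell, with a median of 0.04. Between the deletions 4 were higher in ssn6 and 0 in tup1, with a median difference of −0.073, where that of all genes was −0.066. Against the shares of all genes given above, the counts in the comparisons with wild type are of the same order. The 4 of 55 between the deletions lie above the 1.91% of all genes, in lists chosen with earlier results of these data known. No test of these counts was made.

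The reductases and their copper supply, 10 genes, gave 3 rises and 1 fall in ssn6, and 2 rises and 2 falls in tup1. Of all genes, 9.18% rose and 10.3% fell in ssn6, and 10.4% rose and 12.6% fell in tup1. FRE4 and FRE3, which act on siderophore iron, rose in ssn6 by 2.14 ± 0.35 (limma adjusted p = 0.00753) and 1.18 ± 0.17 (adjusted p = 0.00403). The copper transporter gene CTR1 rose there by 0.998 ± 0.209 (adjusted p = 0.0181). In tup1 the surface reductase genes split, as FRE1 fell by 1.30 ± 0.16 on the log2 scale (adjusted p = 0.00187) and FRE2 rose by 0.94 ± 0.21 (adjusted p = 0.0202). FRE5 rose by 1.64 ± 0.43 in tup1 (adjusted p = 0.0358). Its wild-type values were low, at 7.41, 5.97 and 7.08. The 5.97 was in wild-type replicate 2, the array with the unusual actin control, where the floor was 5.61. The vacuolar reductase gene FRE6 fell in both deletions, by 0.92 ± 0.22 in ssn6 and 0.93 ± 0.22 in tup1.

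As with FTR1, 3 genes of this list of 10 were higher in ssn6 than in tup1, and 0 were lower, against 1.91% and 0.496% of all genes. The median difference of the list was −0.03, where that of all genes was −0.07, and these counts were not tested. CTR1 differed by 1.56 ± 0.23 (limma adjusted p = 0.0215), FRE1 by 1.27 ± 0.17 (adjusted p = 0.0169) and FRE3 by 1.27 ± 0.19 (adjusted p = 0.0207). From the list of low-affinity, vacuolar and mitochondrial metal transporters, the manganese transporter gene SMF1 was the fourth, at 0.87 ± 0.15 (adjusted p = 0.0339). SMF1 rose by 1.24 ± 0.13 in ssn6. MRS3, a mitochondrial iron carrier gene, fell by 0.74 ± 0.14 in ssn6 and 0.76 ± 0.14 in tup1. These were the only calls of that list of 10 against wild type. Of all genes, 9.18% rose and 10.3% fell in ssn6, and 10.4% rose and 12.6% fell in tup1.

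Among 11 regulators of iron use, 0 rose, 2 fell in ssn6 and 3 fell in tup1, where 10.3% and 12.6% of all genes fell. TIS11 (also CTH2) and CTH1 encode proteins that promote the decay of mRNAs when iron is scarce. TIS11 fell by 1.47 ± 0.35 in ssn6 (limma adjusted p = 0.0272) and fell by 1.40 ± 0.35 in tup1 (adjusted p = 0.0292). CTH1 fell by 1.13 ± 0.16 in ssn6 (adjusted p = 0.00374) and fell by 0.70 ± 0.16 in tup1 (adjusted p = 0.0207). GRX3, for a glutaredoxin that restrains Aft1, fell by 0.89 ± 0.18 in tup1 (adjusted p = 0.0159).

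AFT1, the activator itself, read 11.29, 11.25 and 10.32 in wild type, 10.15 and 10.25 in ssn6 and 10.58 and 9.99 in tup1. Wild-type replicate 3 was again far from the other wild-type arrays. AFT1 did not pass, with changes of −0.76 ± 0.32 in ssn6 (limma adjusted p = 0.139) and −0.67 ± 0.32 in tup1 (adjusted p = 0.172).

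Of 5 further genes ascribed to the Aft1 regulon, 3 rose in ssn6 and 2 in tup1, where 9.18% and 10.4% of all genes rose. These counts were not tested. The 5 are not the whole regulon and do not stand for it. The members and the FRE genes, described above as activated by Aft1 too, moved in both directions. ECM4, a glutathione transferase gene, rose by 1.32 ± 0.17 and 1.55 ± 0.17, and the cyclin gene PCL5 by 0.79 ± 0.19 and 0.65 ± 0.19, while BNA2, of NAD synthesis, rose by 1.25 ± 0.29 in ssn6. LSO1 of that list stood under the floor on every array (4.09 to 5.09), so it has no measured change. The 11 genes of iron-sulfur cluster assembly gave 1 call, a fall of NFS1, the cysteine desulfurase gene, in tup1 by 0.50 ± 0.13. The 8 genes of haem synthesis gave 1, a rise of HEM14, for an oxidase of the pathway, in tup1 by 0.68 ± 0.19. Of all genes, 10.3% fell in ssn6 and 12.6% fell in tup1.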

How the data were processed

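The authors deposited log2 expression values per probe set, already normalized between arrays; per the submitters' processing notes RMA and limma were used, with no role or version given. RMA values compress changes of dim genes and carry no detection call. Of 10928 probe sets, 5498 have 1 budding yeast gene. For 47 genes with several, the one with the highest mean was used, which left 5449 genes; all 10 members have 1. The platform annotation gave the gene symbols; 12 were updated from RefSeq's R64 table, used for names and gene order only.

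With limma 3.58.1 (R 4.3.3), genotype means were estimated from all 7 arrays in a single linear fit with eBayes moderation (4 residual and 3.19 prior degrees of freedom). Two-sided p-values were adjusted over the 5449 genes by Benjamini-Hochberg and read at 0.05. The procedure was tested on simulated data that gave each gene the same spread in every genotype. That test does not cover the unequal replicate differences given above. Figures used Python 3.11.15 and matplotlib 3.10.9. The number of arrays limits the precision.

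The members and lists were chosen with earlier results of these data known. Text names are the 10 members, CYC8 and TUP1, mating-type markers, up to 5 genes past the threshold per iron list and comparison, and the nearest profiles; AFT1, LSO1, TKL2, POX1 and the neighbouring genes were added after their values were seen. The alternatives changed the normalization (quantile, median centring), the gene filter (over the floor on at least 2 arrays), the variance prior (trend and robust eBayes), the arrays fitted (genotypes compared only, each array left out), array weights, a replicate block, the averaging of probe sets and the threshold (0.01). A crossed block was chosen after seeing the data. Deviations of same-numbered arrays correlated at −0.36 to 0.28, so the replicate numbers were not taken as pairs. With 2 arrays per deletion the deviations mirror each other, so this check cannot decide whether arrays were paired. A motif search of promoters and protein identities were planned and are not analysed here.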

Additional observations from a re-analysis of the deposited data

Results flagged for a closer look

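FTR1 differed between the deletions by the test of the difference itself. Its level was 1.06 ± 0.17 log2 units higher in the ssn6 deletion than in the tup1 deletion (n = 2 and 2 arrays, limma adjusted p = 0.0283), with changes against wild type of 0.50 in ssn6 and −0.56 in tup1. The call was lost without either ssn6 array or tup1 replicate 1 (adjusted p from 0.182 to 0.263). It was the 1 member of the 10 for which this difference passed.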

How the results depend on the processing

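Of 510 refits of single member changes (17 alternatives), 452 kept direction and side of the threshold, 36 lost a call, 12 gained one and 10 changed sign, none of these in a called change. In ssn6 against wild type, 4 members and 1059 genes were called. Array weights called 2139 genes, the replicate block 2 members, the crossed block 2 members and 552 genes, and an adjusted p of 0.01 0 members and 397 genes. In tup1 (2 members, 1255 genes), fitting only the genotypes compared called 1 and 767, the crossed block 1 and 686, and the stricter threshold 0 and 456. Between the deletions (1 member, 131 genes), only the genotypes compared called 2 members, array weights 2 and 412 genes, the replicate block 0 and 58, the crossed block 0 and 25, and the stricter threshold 0 and 25. The cause of these shifts was not tested. Leaving out 1 array gave 0 to 4 members and 279 to 1196 genes in ssn6, 0 to 4 and 427 to 1366 in tup1, and 0 to 2 and 5 to 257 between the deletions. Sign changes concerned uncalled values near 0. With array weights FET3 and ENB1 in ssn6 read −0.0208 and −0.0379, and after median centring FIT3 between the deletions read 0.029. Leaving out 1 array gave −0.0005997 to 0.1902 for FET3 in ssn6, −0.2024 to 0.2802 and −0.1145 to 0.3681 for ENB1 in ssn6 and tup1, and −0.001739 to 0.3182 and −0.1682 to 0.1518 for FIT3 in tup1 and between the deletions. Under the replicate block SIT1 (adjusted p = 0.0528) and FIT2 (0.0793) in ssn6, and FTR1 in tup1 (0.0754) and between the deletions (0.0757), no longer passed, while HMX1 in tup1 did (0.0318). FTR1 in tup1 was called in 7 of the 17 alternatives and was also lost by quantile normalization (0.0505) and with only the genotypes compared (0.0894). Calls were gained for FET3 in tup1 (quantile 0.0391, trend and robust eBayes 0.0338), FTR1 in ssn6 (quantile 0.044, array weights 0.0266) and ARN1 between the deletions (only the genotypes compared 0.0453, array weights 0.0471).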

Other observations

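Of the 10 members, 7 lie within 14 genes of a chromosome end in the RefSeq gene order, and FET3, FTR1 and HMX1 lie farther in. The cut of 14 is the place of FIT2, the farthest of the 7. The share of all genes this near an end was not counted. The genes on either side did not all follow the members. SIT1 lies between HPA3, for an acetyltransferase of D-amino acids, and AVT2, for a putative transporter, and both rose in ssn6, by 2.26 ± 0.19 (limma adjusted p = 0.000297) and 0.84 ± 0.18 (adjusted p = 0.0176). They rose in tup1 too, by 1.14 ± 0.19 (adjusted p = 0.0073) and 0.82 ± 0.18 (adjusted p = 0.0174), where SIT1 itself, at 0.33, did not pass. Of the 2 genes beside FIT1, the stress protein gene HSP31 rose by 1.37 ± 0.17 in ssn6 and 1.35 ± 0.17 in tup1 (adjusted p = 0.00228 and 0.00234). The other, the glycerol transporter gene STL1, read 0.18 ± 0.21 and 0.54 ± 0.21 and did not pass. FIT3 has FRE5, which rose in tup1, on its other side from FIT2. Of 13 neighbours that are no members and were measured, 3 rose and 0 fell in ssn6, and 4 rose and 1 fell in tup1, where the shares of all genes were 9.18% and 10.3% in ssn6 and 10.4% and 12.6% in tup1. No test of these counts was made. These neighbours were looked up after the members' values were seen.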
